A study of Mus musculus with 12 samples.

Results

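Of the 55487 gene models measured in bone-marrow-derived macrophages (BMDMs), 10 are described here. They were selected on the measured difference between knock-out and wild-type libraries: the difference had the same direction with and without lipopolysaccharide (LPS), or RNA was present in one genotype and nearly absent in the other. *Akr1e1*, *Gm16867*, *Atf7ip2*, *Eya1*, *Arfgef3*, *Uchl1*, *Ppic* and *Ufd1* had more RNA in the knock-out, and *Gm15446* and *Gm28438* had less. Because the genotype difference chose these genes, its values below are a description and carry no test. The response of the same genes to LPS was not used to choose them and was tested.

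Poly(A) RNA was sequenced from BMDMs of 4 groups with 3 libraries each: untreated KO macrophages, untreated WT macrophages, KO macrophages exposed to LPS (100 ng/ml over 4 h), and WT macrophages exposed likewise. The KO mice are labelled Rasgef1b-fl/fl;CMVcre, the WT mice wildtype, and both strains C57BL/6, with an age of 8 to 12 weeks. In the KO mice a ubiquitously active Cre recombinase under the CMV promoter removed exons 7 and 8 of *Rasgef1b*, which encodes an exchange factor for the small GTPase Rap2, so the deletion is not limited to macrophages. Each library came from its own RNA sample of cultured macrophages.

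The origin of the mice limits what a genotype difference can be tied to. By the study's methods, the allele was made in C57BL/6 embryonic stem cells, passed through MF1 blastocysts and through mice that carried Flp and Cre recombinases, and the KO line was bred in a facility in the USA, whereas the WT mice were supplied by a facility in Brazil. They are not described as littermates. A targeted allele carries along the DNA that flanks it, and separately bred colonies of an inbred strain collect their own sequence differences, some of which switch single genes on or off. Loss of *Rasgef1b*, linked strain DNA and the colony of origin cannot be told apart by this design.

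The recovered reads per library numbered 19316691 to 24977356. *Rasgef1b* had 695, 545 and 587 normalized counts in untreated KO libraries, against 2171, 2001 and 2043 in untreated WT libraries. After LPS it had 3775, 4192 and 3618 in KO libraries, against 12554, 11855 and 11844 in WT libraries, so the targeted gene separated the genotypes as labelled. The summed counts of 8 macrophage markers were 215104 to 268170 in untreated KO libraries and 261612 to 323497 in untreated WT libraries. After LPS they were 273170 to 339137 in KO libraries and 339103 to 392543 in WT libraries. In both conditions the KO range lay lower with a small overlap. Most of the untreated sum was *Lyz2*, at 146219 ± 21739 in KO and 187439 ± 26377 in WT macrophages (SD, n = 3 each). Over the 8 markers the median log2 fold change of KO over WT was -0.06 untreated and -0.05 after LPS. None passed a limma adjusted p of 0.05, and *Itgam* was higher in KO by 0.18 and 0.24 on the log2 scale. Of 4 T cell markers *Cd3d* was at 0 in every library, and *Cd3e* and *Cd8a* had at most 1.71 normalized counts. Nearly all of the sum of the 4 was *Cd4*, so it describes *Cd4* and not a number of T cells. This sum was 106 to 141 in untreated KO libraries, against 168 to 245 in untreated WT libraries. After LPS that sum was 83.5 to 99.4 in KO libraries and 151 to 175 in WT libraries. In these bulk samples fewer cells of a type and less RNA per cell cannot be told apart. Replicate 2 of both KO groups and replicate 1 of both WT groups held 15146 to 18652 normalized counts of *Xist*, the RNA of the silenced X chromosome, against 5.73 to 28.7 in the other 8 libraries. *Ddx3y*, a gene of the Y chromosome, had 0.692 to 7.85 in the 4 *Xist*-rich libraries and 1246 to 1658 in the other 8. The *Xist*-rich libraries thus have the pattern of female cells and the others that of male cells, so sex varied within every group. Replicate 2 of the untreated KO macrophages also had 5.06% of its reads in 1 ribosomal RNA gene, against 0.0398% to 0.0874% elsewhere. The values without the *Xist*-rich libraries are given beside the genes they touch.

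The 10 genes do not form a pathway. They include enzymes of carbohydrate and protein handling, a transcriptional coactivator, a member of an exchange factor family for ARF GTPases, and predicted genes with no assigned function. They lie on 7 chromosomes of GRCm38, and those on chromosome 5, the chromosome of *Rasgef1b*, are *Gm15446* at 10.2 Mb and *Uchl1* at 32.5 Mb from the targeted gene. In untreated macrophages all 10 had KO and WT libraries that did not overlap, and the same was true of all 10 after LPS. Over all tested genes, KO and WT libraries did not overlap in 16.4% untreated and in 16.1% after LPS. Of the tested genes, 0.193% of 12461 were called in untreated macrophages (24 genes) and 0.232% of 12504 after LPS (29 genes), at an adjusted p under 0.05 and a fold change of at least 2 with limma. With the replicate number as a block, 44 genes were called in untreated macrophages. Of the 10 genes, 9 passed the filter of a mean of at least 10 normalized counts in untreated macrophages and 7 were called. After LPS 10 passed and 9 were called. These counts restate the choice of the genes. *Akr1e1* and *Gm16867* passed the filter through the KO libraries alone, and *Gm15446* and *Gm28438* through the WT libraries alone.

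**Figure D1:**
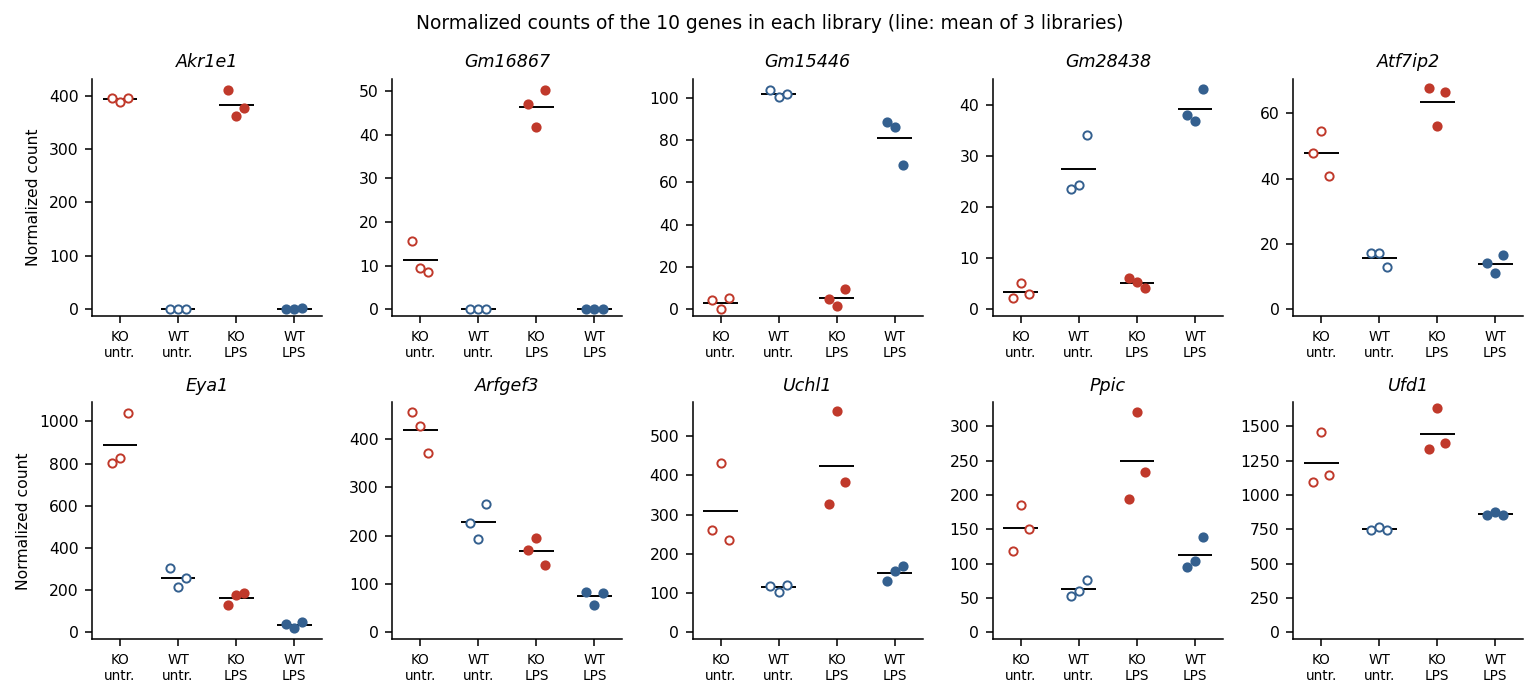
Normalized counts (vertical axis, 1 scale per gene) of the 10 genes in KO and WT libraries, untreated (open circles) and after LPS (filled circles), with 1 point per library and a line at the mean of 3 libraries. The points of KO and WT do not overlap within a condition in any panel (16.4% of all tested genes untreated and 16.1% after LPS), and *Akr1e1* and *Gm16867* lie at or next to 0 in WT.

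*Akr1e1* encodes an aldo-keto reductase that in the mouse reduces 1,5-anhydro-D-fructose, a product of glycogen breakdown. It lies on the reverse strand of chr13:4590750-4609174. Untreated KO libraries had 396, 388 and 397 normalized counts, against 0.692, 0.660 and 0.797 in untreated WT libraries, where each value is a single read. After LPS the KO libraries had 411, 362 and 377, whereas the WT libraries were at 0, 0 and 2.78. The gene was thus near silence in 6 of 6 WT libraries and at a similar level in 6 of 6 KO libraries. The KO mean was 394 ± 4.81 untreated and 383 ± 25.2 after LPS (SD, n = 3 each). In reads, the ratio of KO over WT was 554 untreated (1570 reads against 3) and 415 after LPS (894 against 2). The 95% intervals, exact Clopper-Pearson and for counting error only, were 189 to 2688 and 115 to 3436.

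The promoter of *Akr1e1* is shown because the gene is the clearest case of RNA in one genotype alone. It is the RefSeq window from 250 bases before to 50 bases after the annotated start, reverse strand of chr13:4609115-4609414 in GRCm38.p6, with CCAAT in capitals:
Akr1e1 promoter: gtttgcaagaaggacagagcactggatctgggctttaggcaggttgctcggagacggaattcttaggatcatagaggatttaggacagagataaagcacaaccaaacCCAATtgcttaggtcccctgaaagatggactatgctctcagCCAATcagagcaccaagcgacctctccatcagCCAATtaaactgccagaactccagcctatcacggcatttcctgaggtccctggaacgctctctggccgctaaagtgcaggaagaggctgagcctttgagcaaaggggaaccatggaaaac
This reference sequence, which is not read from these mice, holds CCAAT 3 times on the gene's own strand, starting 143, 102 and 70 bases before the start. CCAAT on either strand occurs in 37.4% of the 32851 mouse promoter windows of the table. The other motifs searched on both strands, TATAAA (13.6% of windows), GGGCGG (35.7%) and CACGTG (7.15%), were not found in it, and none of the motifs overlapped another. Of the 10 genes, 7 had a window in the table.

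*Gm16867* is a predicted protein-coding gene of no known function on the reverse strand of chr14:69363504-69503362. No read was found in any of the 6 WT libraries. Untreated KO libraries had 15.5, 9.41 and 8.59 normalized counts, and LPS-treated KO libraries had 47.2, 41.8 and 50.4. Against an assumed floor of 3 reads over the WT group, the ratio of KO over WT for *Gm16867* was 15.9 untreated (45 KO reads) and 33.5 after LPS (108 KO reads). From the reads as observed, without that floor and for counting error only, the lower limits of the exact 95% intervals were 12.4 and 26.8. Across the table it was the only gene model with reads in every KO library, none in any WT library and at least 20 reads in all, and 0 gene models showed the reverse. It overlaps *Entpd4* and 5 further gene models, none of which exceeded 1.71 normalized counts in any library. The nearest tested gene, *Slc25a37* at 78.4 kb, which encodes the mitochondrial iron importer mitoferrin, had 1020 ± 96.3 in untreated KO and 1159 ± 68.3 in untreated WT macrophages (SD, n = 3 each).

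*Gm15446* had the opposite pattern. It lies on the forward strand of chr5:109923400-109943936 and is listed as protein coding by GENCODE. In untreated KO libraries *Gm15446* had 4.23, 0 and 5.01 normalized counts, against 104, 100.3 and 102 in untreated WT libraries. LPS-treated KO libraries had 4.84, 1.31 and 9.53, against 88.7, 86.0 and 68.2 in WT libraries. All 6 KO libraries were far under every WT library, and replicate 2 was the lowest KO library in both conditions. Reads in KO, scaled for depth, were 0.0320 of those in WT when untreated (13 against 430 reads, interval 0.0169 to 0.0553). After LPS the ratio was 0.0637 (12 against 175, interval 0.0323 to 0.114).

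*Gm28438* is an unprocessed pseudogene of 345 bases on the reverse strand of chr1:24612775-24613119. It stands in a block of copies of mitochondrial genes. Its untreated KO libraries had 2.12, 5.13 and 2.86 normalized counts, against 23.5, 24.4 and 34.3 in untreated WT libraries. With LPS, the KO libraries had 6.05, 5.23 and 4.08, against 38.0, 36.8 and 43.1 in WT libraries. The ratio of reads was 0.121 untreated (13 against 114, interval 0.0623 to 0.215) and 0.131 after LPS (12 against 85, interval 0.0652 to 0.241).

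The copy is almost identical to *mt-Nd3*, a mitochondrial gene for a subunit of respiratory complex I. The first 120 bases of each GENCODE transcript are shown because they hold the single base that separates them, which is in capitals:
Gm28438: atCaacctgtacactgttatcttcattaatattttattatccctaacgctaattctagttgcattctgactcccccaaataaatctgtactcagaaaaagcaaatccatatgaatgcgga
mt-Nd3: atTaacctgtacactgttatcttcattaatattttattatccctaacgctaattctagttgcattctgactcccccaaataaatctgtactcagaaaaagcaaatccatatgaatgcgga
Over 345 compared bases the sequences differ once, by T3C, counted from 1 at the 5′ end of the transcript with the *mt-Nd3* base first. The position is base 9461 of the mitochondrial reference genome, one at which substrains of C57BL/6 are known to differ. Within these bases, reads from the copy and the mitochondrial gene can be told apart at that base alone, and the base carried by these mice was not analysed here.

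Counts of *mt-Nd3* lay the other way after LPS but did not pass the adjusted p. The log2 fold change of KO over WT was 1.01 (SE 0.22, limma adjusted p = 0.0886). Untreated it was 0.37 (SE 0.27, adjusted p = 0.708). Libraries of the genotypes did not overlap after LPS, as in 16.1% of all tested genes. LPS-treated KO libraries had 62.9, 61.5 and 62.6 normalized counts, against 39.4, 25.9 and 27.8 in LPS-treated WT libraries. Without LPS the KO libraries had 43.7, 65.8 and 32.2 and the WT libraries 42.9, 29.0 and 34.3, which overlap. The sum of *Gm28438* and *mt-Nd3* overlapped between the genotypes in both conditions. It was 50.6 ± 18.4 in untreated KO and 62.8 ± 8.15 in untreated WT macrophages, and 67.4 ± 1.30 in KO and 70.4 ± 7.33 in WT macrophages after LPS (SD, n = 3 each).

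The adjacent copy *Gm10222*, which equals *mt-Nd4l* over its 294 bases, was also lower in KO after LPS, with its mitochondrial twin higher. *Gm10222* had 4.84, 3.92 and 1.36 in LPS-treated KO libraries, against 25.3, 16.4 and 19.5 in LPS-treated WT libraries. *mt-Nd4l* had 12.1, 11.8 and 12.2 in those KO libraries, against 0, 2.73 and 1.39 in the WT libraries. After LPS the sum of *Gm10222* and *mt-Nd4l*, unlike that of *Gm28438* and *mt-Nd3*, did not overlap between the genotypes. It was 16.9, 15.7 and 13.6 in KO libraries, against 25.3, 19.1 and 20.9 in WT libraries. Without LPS these sums overlapped. The copy on the other side of *Gm28438* had similar levels in both genotypes after LPS. *Gm28437*, which equals *mt-Co3* over 783 bases, had 39.7 ± 12.1 in KO and 37.4 ± 6.81 in WT macrophages after LPS (SD, n = 3 each). The value of *Gm28438* is therefore uncertain as a level of its own RNA, and the part of its mitochondrial twin in the genotype difference was not tested.

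**Figure D2:**
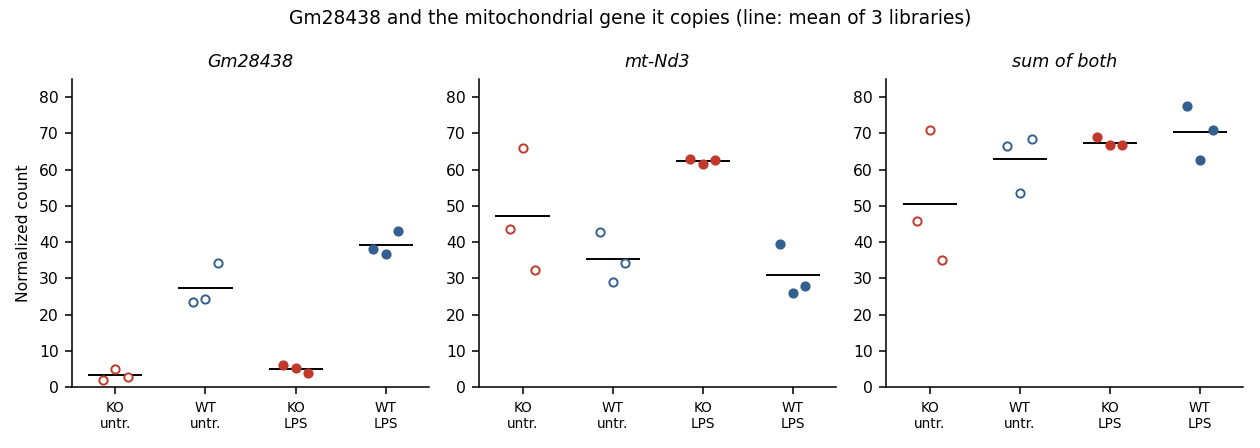
Normalized counts of *Gm28438*, of *mt-Nd3* and of their sum (vertical axes, same scale) in each library, untreated (open) and after LPS (filled), with a line at the mean of 3 libraries. After LPS, *Gm28438* is lower and *mt-Nd3* higher (limma adjusted p = 0.0886) in all KO libraries, while the sums of KO (66.7 to 68.9) lie within those of WT (62.8 to 77.4).

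*Atf7ip2* encodes the paralog of ATF7IP, a partner of the histone methyltransferase SETDB1 in gene silencing. It lies on the forward strand of chr16:10192712-10251478. *Atf7ip2* had 48.0, 54.7 and 40.8 normalized counts in untreated KO libraries, against 17.3, 17.2 and 12.7 in untreated WT libraries. In LPS-treated KO libraries *Atf7ip2* had 67.7, 56.2 and 66.7, against 14.1, 10.9 and 16.7 in WT libraries. The lowest KO library exceeded the highest WT library more than 2-fold in both conditions. The log2 fold change of KO over WT, on the scale of log2(normalized count + 1), was 1.55 (SE 0.21) untreated and 2.13 (SE 0.26) after LPS. *Atf7ip* itself had 843 ± 111 in untreated KO and 883 ± 118 in untreated WT macrophages (SD, n = 3 each).

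*Eya1* encodes a transcriptional coactivator that is also a tyrosine phosphatase and is best known from the development of ear and kidney. It lies on the reverse strand of chr1:14168954-14310235. For *Eya1*, untreated KO libraries had 801, 826 and 1039.7 normalized counts, against 307, 214 and 256 in untreated WT libraries. After LPS the KO libraries had 128, 179 and 189, against 42.2, 23.2 and 47.3 in WT libraries. The log2 fold change of KO over WT was 1.78 (SE 0.14) untreated and 2.15 (SE 0.27) after LPS. The difference of these values was 0.37 (SE 0.34), close to its SE, and was not tested.

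*Arfgef3* encodes a protein named for its likeness to exchange factors for ARF GTPases, which direct vesicle traffic. It lies on the reverse strand of chr10:18581839-18743949. Untreated KO libraries had 456, 428 and 371 normalized counts, against 226, 194 and 265 in untreated WT libraries. LPS-treated KO libraries had 171, 195 and 140.2, against 84.4, 57.3 and 82.1 in WT libraries. The log2 fold change was 0.88 (SE 0.13) untreated, just under the 2-fold line, and 1.17 (SE 0.19) after LPS. It was therefore called in LPS-treated macrophages alone, but the change of the log2 fold change, 0.30 (SE 0.24), was not tested.

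*Uchl1*, *Ppic* and *Ufd1* shared a pattern within the KO libraries. *Uchl1*, a ubiquitin hydrolase abundant in neurons, lies on the forward strand of chr5:66676091-66687234. It had 261, 432 and 235 normalized counts in untreated KO libraries, against 119, 103 and 122 in untreated WT libraries. After LPS it had 328, 564 and 382 in KO libraries and 132, 157 and 168 in WT libraries. Replicate 2 was the highest KO library in both conditions, 1.74 times the mean of the other KO libraries untreated and 1.59 times after LPS.

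*Ppic* encodes cyclophilin C, a peptidyl-prolyl isomerase of the secretory pathway, on the reverse strand of chr18:53406332-53418115. Its untreated KO libraries had 119, 186 and 151 normalized counts, against 52.6, 60.7 and 76.5 in untreated WT libraries. After LPS the KO libraries had 195, 322 and 234, against 95.7, 104 and 139 in WT libraries. Replicate 2 was again the highest in KO, 1.38 times the mean of the others when untreated. WT replicate 3 was the highest in WT, 1.35 times the mean of the others, so *Ppic* varied within both genotypes.

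*Ufd1* encodes the adaptor that, with NPL4, links ubiquitylated proteins to the ATPase p97 (*Vcp*), and lies on the forward strand of chr16:18811779-18835261. Untreated KO libraries had 1096, 1456 and 1149 normalized counts, against 749, 770.3 and 745 in untreated WT libraries. After LPS they had 1338, 1632 and 1376 in KO, against 853, 880.2 and 857 in WT. The WT libraries spanned 745 to 770.3 untreated and 853 to 880.2 after LPS, whereas KO replicate 2 was 1.30 times the mean of the other KO libraries untreated and 1.20 times after LPS. *Ufd1* had the smallest genotype difference of the 10 genes, 0.70 (SE 0.10) untreated and 0.74 (SE 0.08) after LPS on the log2 scale, and was not called in either condition for want of a 2-fold change.

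KO replicate 2 is the *Xist*-rich library of each KO group, with the pattern of female cells, so sex and this replicate cannot be told apart in KO. In WT the *Xist*-rich library, replicate 1, was not the highest for *Uchl1*, *Ppic* or *Ufd1* in either condition. An effect of sex was not tested. With the *Xist*-poor libraries alone, 2 per group, the log2 fold change of *Uchl1* was 1.14 untreated and 1.12 after LPS, against 1.37 and 1.44 with all libraries. For *Ppic* it was 0.96 and 0.82, against 1.24 and 1.13, which takes the gene under the 2-fold line. For *Ufd1* it was 0.57 and 0.64. In these libraries *Akr1e1* was at 7.85 and 7.67, *Gm15446* at -4.19 and -3.31, and *Gm28438* at -3.11 and -2.77. *Atf7ip2* was at 1.52 and 2.23, *Eya1* at 1.96 and 2.20, *Arfgef3* at 0.85 and 1.16, and *Gm16867* at 5.64 after LPS. The direction of these values was part of the choice of the genes. Summed counts of 5 neuronal markers also peaked in KO replicate 2, where most of the sum was *Map2* (68.4 untreated and 60.1 after LPS). Mean counts of *Map2*, *Rbfox3* and *Snap25* were higher in KO than in WT in both conditions, and those of *Tubb3* and *Elavl3* lower. After LPS *Snap25* was lowest in KO replicate 2, at 7.85, against 13.3 and 10.9 in the other KO libraries. The sums below therefore do not give a number of neuronal cells. They were 43.7, 94.9 and 28.6 in untreated KO libraries, against 22.8, 32.3 and 19.1 in untreated WT libraries. After LPS they were 62.9, 75.8 and 42.2 in KO libraries, against 42.2, 25.9 and 29.2 in WT libraries. *Elavl3* was at 0 in all LPS-treated KO libraries. The part of any neuronal cells, or of the *Xist*-rich libraries, in the values of *Uchl1*, *Ppic* and *Ufd1* was not tested.

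**Figure D3:**
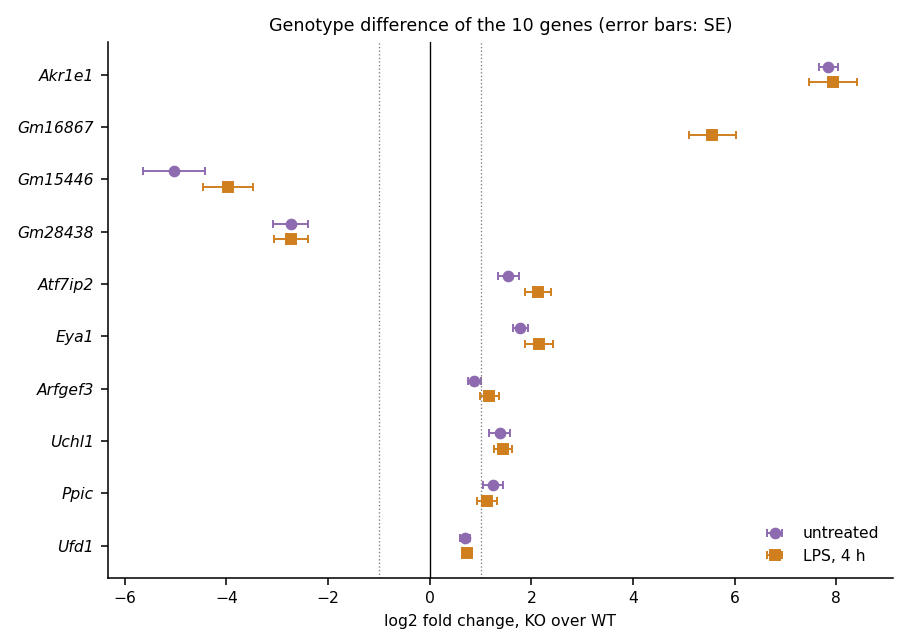
Log2 fold change of KO over WT (horizontal axis, on log2 of the normalized count plus 1, error bars SE) for the 10 genes in untreated (circles) and LPS-treated macrophages (squares), with dotted lines at 2-fold. Each gene has the same sign in both conditions, from -5.03 for *Gm15446* to 7.95 for *Akr1e1*; *Gm16867* did not pass the filter in untreated macrophages.

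The reads of overlapping genes were considered next, since the use of strand in counting is not given in the sources used here. Gene models of the table overlap 6 of the 10 genes. Of these 14 models, 13 had at most 2.82 normalized counts in any library. The exception is *Cdc45*, a replication factor gene that shares 209 bases with *Ufd1* on the other strand. It had 283, 375 and 279 normalized counts in untreated KO libraries, against 209, 218 and 165 in untreated WT libraries, and replicate 2 was again the highest in KO. *Cdc45* itself was not called, with a log2 fold change of 0.66 (SE 0.15, limma adjusted p = 0.118) untreated and 0.56 (SE 0.25, adjusted p = 0.459) after LPS. The level of *Ufd1* is uncertain to the extent of the shared bases.

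The LPS response of the 10 genes was then read from the fits across all genes. LPS called 33.8% of 12732 tested genes in KO macrophages and 33.9% of 12656 in WT macrophages. In KO macrophages 8 of the 10 genes could be tested and 3 were called: *Gm16867* rose, and *Eya1* and *Arfgef3* fell. In WT macrophages 8 could be tested and 2 were called, *Eya1* and *Arfgef3*, which fell. Both counts lie near or under the share of all genes. The median log2 fold change was 0.32 over the 8 tested genes in KO macrophages, against -0.01 over all genes, and 0.01 over the 8 in WT macrophages, against -0.02 over all genes.

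*Eya1* fell to 166 ± 32.7 normalized counts in LPS-treated KO macrophages, against 889 ± 131 in untreated ones (SD, n = 3 each), a log2 fold change of -2.43 (SE 0.16, limma adjusted p = 1.73e-06). In WT macrophages it fell to 37.6 ± 12.7 after LPS, against 259 ± 46.8 untreated, a log2 fold change of -2.80 (SE 0.26, adjusted p = 8.23e-06). The direction was the same in 3 of 3 libraries of each genotype. After LPS the KO level of *Eya1* (128 to 189) was below the untreated WT level (214 to 307).

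*Arfgef3* fell to 169 ± 27.4 in LPS-treated KO macrophages, against 418 ± 43.2 in untreated ones (SD, n = 3 each), a log2 fold change of -1.31 (SE 0.14, limma adjusted p = 3.28e-05). In WT macrophages it fell to 74.6 ± 15.0, against 228 ± 35.7 untreated, a log2 fold change of -1.61 (SE 0.18, adjusted p = 3.25e-05). LPS-treated and untreated libraries did not overlap in either genotype.

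*Gm16867* rose to 46.5 ± 4.30 in LPS-treated KO macrophages, against 11.2 ± 3.79 in untreated ones (SD, n = 3 each). The log2 fold change was 2.00 (SE 0.28, limma adjusted p = 2.07e-04), and the 3 LPS-treated libraries lay above all untreated ones. A response in WT macrophages could not be tested because no read was found there.

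*Akr1e1* did not pass the test in KO macrophages, with a log2 fold change of -0.04 (SE 0.08, limma adjusted p = 0.666). Its level in LPS-treated KO libraries overlapped that in untreated ones. *Gm15446* (-0.34, SE 0.15, adjusted p = 0.0619) and *Gm28438* (0.52, SE 0.22, adjusted p = 0.0587) did not pass in WT macrophages, and both were under the filter in KO macrophages. *Atf7ip2* did not pass in KO (0.41, SE 0.18, adjusted p = 0.0705) or WT macrophages (-0.17, SE 0.29, adjusted p = 0.61).

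Smaller shifts passed the adjusted p but not the 2-fold line. By the adjusted p alone 4 of the 8 tested genes passed in KO macrophages, against 72.1% of all tested genes, and 5 of 8 in WT macrophages, against 73.2%. *Ppic* was higher after LPS by 0.71 in KO (SE 0.21, limma adjusted p = 0.0153) and by 0.82 in WT macrophages (SE 0.20, adjusted p = 0.00416) on the log2 scale. *Ufd1* had 0.24 in KO (SE 0.12, adjusted p = 0.104) and 0.19 in WT macrophages (SE 0.06, adjusted p = 0.0129). *Uchl1* had 0.47 in KO (SE 0.26, adjusted p = 0.129) and 0.41 in WT macrophages (SE 0.14, adjusted p = 0.0227). With same-numbered KO libraries as pairs (replicate block), both passed in KO macrophages as well, at limma adjusted p = 0.00453 (SE 0.06) for *Ufd1* and 0.00209 (SE 0.10) for *Uchl1*, and were higher after LPS in 3 of 3 pairs. The difference in LPS response between the genotypes was 0.04 (SE 0.14) for *Ufd1* and 0.06 (SE 0.32) for *Uchl1*, and was not tested.

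**Figure D4:**
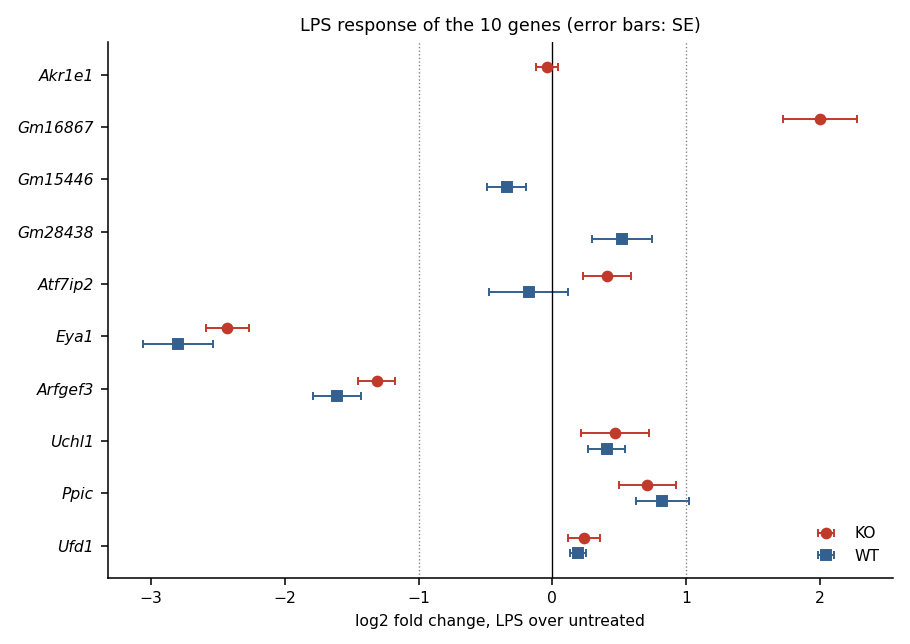
Log2 fold change of LPS over untreated (horizontal axis, error bars SE) for the 10 genes in KO (circles) and WT macrophages (squares), with dotted lines at 2-fold. *Eya1* and *Arfgef3* lie left of the line in both genotypes and *Gm16867* right of it in KO; genes without a symbol in one genotype were under the filter there.

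Genes close to the 10 on the chromosome were examined, since DNA inherited with a gene would carry its neighbours along. Such DNA need not change the RNA of neighbours, so the values describe the neighbours only, and linkage was not tested. Within 1 Mb of any of the 10 genes, 123 other genes were tested in untreated macrophages and 125 after LPS. Of these neighbours 0 were called in either condition, against 0.193% and 0.232% of all tested genes. The median log2 fold change of the neighbours, KO over WT, was 0.03 and 0.01. Over all tested genes, 1345 untreated and 1324 after LPS had an unadjusted p under 0.05. *Akr1c12*, an aldo-keto reductase gene 311 kb from *Akr1e1*, had a mean of 78.3 in untreated KO and 72.2 in untreated WT macrophages. *Akr1c21*, *Akr1c20* and *Akr1c6* lie closer but were under the filter. *Akr1c21* had 3.53, 3.42 and 0 normalized counts in untreated KO libraries and 1.21, 1.31 and 1.36 after LPS, against 0 in every WT library. *Akr1c20* had 0, 1.31 and 1.36 in LPS-treated KO libraries and 0 in all others. *Akr1c6* had a mean of 0.805 in untreated KO and 0.751 in untreated WT macrophages. *Zfp932*, 52.6 kb from *Gm15446*, had 109 ± 13.3 in untreated KO and 155 ± 10.0 in untreated WT macrophages, but 97.5 ± 1.91 in KO and 75.4 ± 4.55 in WT macrophages after LPS (SD, n = 3 each). *Emp2*, a membrane protein gene 30.3 kb from *Atf7ip2*, was at 2465 ± 277 in untreated KO and 2029 ± 31.2 in untreated WT macrophages (SD, n = 3 each). Neither gene passed between the genotypes. The limma adjusted p was 0.135 untreated and 0.415 after LPS for *Zfp932*, and 0.204 and 0.0952 for *Emp2*.

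By the adjusted p alone, which 0.538% of all tested genes passed untreated and 0.816% after LPS, 1 neighbour passed. *Ciita*, the master regulator of MHC class II genes, lies 228581 bases from *Atf7ip2* and had 214 ± 19.5 in KO and 127 ± 9.88 in WT macrophages after LPS (SD, n = 3 each), a log2 fold change of 0.75 (SE 0.13, limma adjusted p = 0.0305). Without LPS it was at 30.4 ± 4.18 in KO and 60.7 ± 18.1 in WT macrophages, with a log2 fold change of -0.95 (SE 0.23, adjusted p = 0.148), so its direction differed from that of *Atf7ip2*. *Gm10222* beside *Gm28438* had the largest negative value after LPS, -2.37 (SE 0.48, adjusted p = 0.0596). The most extreme value without LPS belonged to *Gm23935* near *Atf7ip2* and had an SE of 1.38 on the log2 scale. *Sorbs3*, 677106 bases from *Gm16867*, was more than 2-fold lower in KO in both conditions but was not called. It had 56.2 ± 26.5 in untreated KO and 114 ± 17.0 in untreated WT macrophages (SD, n = 3 each). Its log2 fold change was -1.10 (SE 0.30, limma adjusted p = 0.188) untreated and -1.28 (SE 0.40, adjusted p = 0.253) after LPS. The paper, with DESeq2, lists *Sorbs3* among the genes lower in untreated KO macrophages. These neighbours, and those named next around *Rasgef1b*, were chosen after their values were seen.

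**Figure D5:**
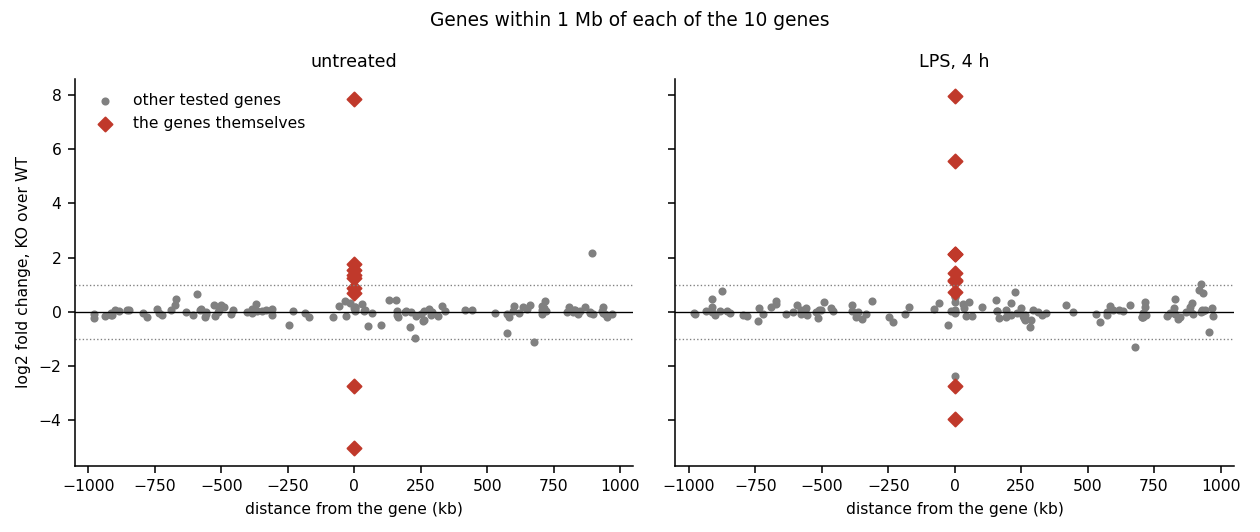
Log2 fold change of KO over WT (vertical axis) against distance in kb (horizontal axis) for tested genes within 1 Mb of any of the 10 genes (grey) and for the 10 genes themselves (red, at 0), in untreated (left) and LPS-treated macrophages (right), with dotted lines at 2-fold. The neighbours scatter around 0 on either side, and 0 of them were called (0.193% of all tested genes untreated and 0.232% after LPS).

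The region of the targeted gene was read in the same way. Within 10 Mb of *Rasgef1b*, 105 other genes were tested in untreated macrophages and 116 after LPS. Of these, 0 were called, against 0.193% and 0.232% of all tested genes. At the adjusted p alone 1 passed untreated and 2 after LPS, against 0.538% and 0.816% of all tested genes. *Hpse*, which encodes heparanase, had 2852 ± 133 in untreated KO and 4148 ± 70.6 in untreated WT macrophages (SD, n = 3 each), a log2 fold change of -0.54 (SE 0.05, limma adjusted p = 0.00825). After LPS it had 3594 ± 232 in KO and 5034 ± 342 in WT macrophages, a log2 fold change of -0.49 (SE 0.08, adjusted p = 0.0195). *Cxcl9*, an interferon-induced chemokine gene, passed after LPS at -0.86 (SE 0.16, adjusted p = 0.0439). *Nnt*, a mitochondrial transhydrogenase gene that is truncated in C57BL/6J but intact in other substrains, had 0 to 8 reads in KO libraries and 1 to 11 in WT libraries, and the ranges overlap. Sequence variants of the mice were not analysed here.

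Relatives of the 10 genes were read from lists by family. None of the listed relatives was called between the genotypes in either condition. Other aldo-keto reductases numbered 7 tested genes, with a median log2 fold change of KO over WT of 0.02 untreated and 0.07 after LPS. The most abundant, *Akr1a1*, had 33075 ± 2359 in untreated KO and 33151 ± 1517 in untreated WT macrophages (SD, n = 3 each). Among 10 genes of glycogen and anhydrofructose metabolism the median was -0.09 untreated and -0.06 after LPS. Of the partners of UFD1, *Nploc4* had 1451 ± 59.0 in untreated KO and 1457 ± 16.9 in untreated WT macrophages, and *Vcp* had 6758 ± 567 and 6632 ± 240. The 15 other cyclophilins tested had medians of -0.03 in both conditions. The 14 other ARF exchange factors had 0.02 and 0.00, and the 9 genes around ATF7IP and SETDB1 had -0.03 and 0.02.

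The LPS response of these relatives was read beside the share called over all tested genes, 33.8% in KO and 33.9% in WT macrophages. Differences between families were not tested. In the EYA family, *Eya4* fell with *Eya1*, to 75.0 ± 6.17 in LPS-treated KO macrophages, against 280.2 ± 36.8 in untreated ones (log2 fold change -1.88, SE 0.13, limma adjusted p = 2.66e-06), and by 2.00 on the log2 scale in WT macrophages (adjusted p = 8.95e-07). Among the ARF exchange factors, *Iqsec1* fell by 2.80 in KO and by 2.50 in WT macrophages, whereas *Psd*, *Iqsec2*, *Arfgef1* and *Psd4* rose. In each genotype 4 of 14 rose and 1 fell, near the share of all tested genes. In the ATF7IP and SETDB1 list, 2 of 9 rose in each genotype, 1 fell in KO and 2 fell in WT macrophages. *Setdb2* rose by 4.09 in KO and 4.00 in WT macrophages, and *Mphosph8* fell by 1.16 in KO and by 1.20 in WT macrophages. *Atf7ip* fell by 1.25 in WT macrophages, and its log2 fold change in KO macrophages was -0.98. The median of the list was -0.54 in KO and -0.45 in WT macrophages. *Ranbp2* was the only cyclophilin-domain gene called, with 2.36 in KO and 2.46 in WT macrophages. No other aldo-keto reductase or ubiquitin C-terminal hydrolase was called after LPS in either genotype. By the adjusted p alone 5 and 4 of the 7 tested reductases passed in KO and WT macrophages, against 72.1% and 73.2% of all tested genes.

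Genes called in the same direction in both genotype fits numbered 10, of which 7 are among those described here and 3 are not. The others are the targeted gene *Rasgef1b*, *Serpinb6b* and the gene model ENSMUSG00000095041 on an unplaced scaffold. *Serpinb6b*, a serine protease inhibitor gene on chromosome 13, had 784, 630.2 and 531 normalized counts in untreated KO libraries, against 248, 297 and 291 in untreated WT libraries. After LPS it had 720, 622 and 512 in KO libraries, against 235, 280 and 285 in WT libraries. ENSMUSG00000095041 had 5183 ± 743 in untreated KO and 2182 ± 80.0 in untreated WT macrophages, and 2469 ± 225 in KO and 1100.2 ± 87.4 in WT macrophages after LPS (SD, n = 3 each). No gene was called in opposite directions in the 2 conditions.

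Across the 12 libraries, centred on the mean of each condition, the gene most like *Uchl1* was *Ufd1* and the gene most like *Ufd1* was *Uchl1* (Pearson r = 0.986). *Gm16867* and *Atf7ip2* were each other's nearest as well (r = 0.979). The genes most like the rest were ENSMUSG00000095041 for *Akr1e1* (r = 0.975), *Ly86* for *Gm15446* (r = 0.978), *St3gal6* for *Gm28438* (r = 0.969), *Cpne8* for *Eya1* (r = 0.977), *Vwf* for *Ppic* (r = 0.974) and *AI506816* for *Arfgef3* (r = 0.952). These 12 points share genotype, and the genes were chosen for it, so the values describe likeness of a step between the genotypes. The plot of counts by library shows what the genotype step leaves out: KO replicate 2 stands above the other KO libraries in *Uchl1*, *Ppic* and *Ufd1* and not in *Akr1e1* or *Gm16867*.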

How the data were processed

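Poly(A) RNA of 12 BMDM libraries was sequenced with paired ends. Per the study's methods and processing notes, the authors used bcl2fastq 2.17, Trimmomatic 0.39, STAR 2.7.4a on GRCm38 with annotation release 100, featureCounts (Subread 2.0.1) and DESeq2 1.32.0, and deposited gene counts divided by size factors, a normalized signal per gene. The deposited values were whole multiples of 1 read in 100% of cases (tolerance 1e-06 reads), so reads were recovered. Whether strand was used in counting is not given in the sources used here.

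Genotype and LPS contrasts were fitted, 2 groups at a time, with limma 3.58.1 (R 4.3.3, trended variance) on log2(normalized count + 1) over genes with a mean of at least 10, with Benjamini-Hochberg adjustment over all genes tested. A call required an adjusted p under 0.05 and a 2-fold change. The log scale understates changes of low genes. edgeR 4.0.16 and DESeq2 1.42.0 on recovered reads, other pseudocounts and filters, a replicate block and leaving out libraries were alternatives. The script was tested on simulated data. Same-numbered LPS and untreated libraries deviated together within a genotype (r of 0.29, 0.28 and 0.17 in KO and 0.33, 0.19 and 0.24 in WT, or 0.24, 0.13 and 0.10 and 0.11, 0.11 and 0.18 without X and Y genes), so the numbers were taken as pairs there; the fits keep the study's unpaired design. Samples were grouped by GEO's labels. P-values measure the spread between these RNA samples, and read intervals cover counting error only. The 10 genes, the family and marker lists and the alternatives were chosen with earlier results of these data known. The rule for named genes took the 10 genes, *Rasgef1b*, *Nnt*, genes called alike in both genotype fits, genes read in 1 genotype only, called neighbours, the genes most like each, called or most abundant relatives, and markers; other neighbours and the mitochondrial copies were named after their values were seen. Positions come from GENCODE M21 and promoters from RefSeq. One result of a family list is not reported here.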

Additional observations from a re-analysis of the deposited data

How the results depend on the processing

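Counts of called genes between genotypes depended on the settings. The 10 genes had the same direction in every single-gene alternative run for the genotype difference (0 reversed). They were chosen for that direction and their KO and WT libraries do not overlap, so this lends it no support. In untreated macrophages 24 genes were called. The count was 42 with no filter on low values, 11 with a mean of at least 50, 2 without a variance trend, 50 with DESeq2, 67 with the adjusted p alone, and 6 with the *Xist*-poor libraries alone, a setting added after seeing the data. Leaving out 1 library gave 4 to 26, with 11 without KO replicate 2, 5 without KO replicate 3, 6 without WT replicate 1 and 4 without WT replicate 2. After LPS 29 genes were called. The count was 5 without a variance trend, 44 with DESeq2, 102 with the adjusted p alone and 16 with the *Xist*-poor libraries alone. Leaving out 1 library gave 11 to 42, with 15 without KO replicate 3 and 11 without WT replicate 2. The cause of these shifts was not tested.

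The replicate block gave 44 calls untreated and 27 after LPS between genotypes. Same-numbered KO and WT libraries correlated at r of -0.03, -0.04 and 0.24 untreated and -0.20, -0.04 and 0.06 after LPS over all genes. Without X and Y genes r was 0.12, 0.12 and 0.18 untreated and -0.11, 0.08 and -0.00 after LPS, so whether the numbers pair untreated libraries depends on those genes. The block changed no 2-fold LPS call of the 10 genes, nor did leaving out a library (3 to 3 calls in KO and 2 to 2 in WT), but with it 6 of 8 in place of 4 of 8 passed the adjusted p in KO macrophages. With the adjusted p alone 5 of 8 passed in WT macrophages. Passes of neighbours by the adjusted p alone, summed over both conditions, numbered 1 for the 10 genes and 3 for *Rasgef1b*, where *Hpse* passed in both. Of the single-gene values, 16 moved by more than the replicate spread, mostly with the pseudocount: *Akr1e1* untreated ranged from 6.12 with a pseudocount of 5 to 9.11 with DESeq2, and *Gm16867* after LPS from 3.36 to 8.12 with edgeR. At 0 to 13 reads a group, the low genotype of the on and off genes is limited by depth.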
